A study of Mus musculus with 16 samples.

Results

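The MYC family and its MAX network were described in 16 mouse small cell lung cancers through 10 genes: Myc, Mycn and Mycl1 (now named Mycl), their partner Max, and the MAX-binding antagonists and regulators Mxd1, Mxi1, Mxd3, Mxd4, Mnt and Mga. They were chosen by symbol and not by level. All 10 were found among the 23224 rows of the count table, and all 10 passed the filter on low counts that left 14857 genes for testing. Small cell lung cancer is a neuroendocrine carcinoma, and the study modelled candidate tumor suppressor genes in it with CRISPR. Tumor formation was started in mice of a mixed C57BL/6;129/Sv strain by deletion of Trp53 and Rb1, so all 16 tumors carry the genotype Trp53-/-; Rb1-/-. In 8 tumors from 4 mice CRISPR had mutated p107 (gene Rbl1), and in 8 tumors from 3 mice it had mutated p130 (gene Rbl2). The sources used here give no ages, no Cre driver and no guide sequences, and no tumor without a p107 or p130 mutation was analysed here.

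MYC, MYCN and MYCL are related transcription factors that bind DNA as a pair with MAX at the E-box and raise the transcription of genes for growth, ribosome production and the cell cycle. MXD proteins, MXI1 and MNT compete for MAX and recruit SIN3 and histone deacetylases to the same sites, and MGA joins MAX in a Polycomb complex that silences germline genes in other cells. In small cell lung cancer, a single MYC family gene is often amplified or highly expressed, usually without the others, and the cell state that accompanies MYC differs from that of MYCL.

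The promoters of the network were searched for the E-box, at which the network binds, and for E2F words, since p107 and p130 act with E2F factors. RefSeq promoter windows (build GRCm38.p6, 250 bases before to 50 bases after a gene's start) were found for 9 of the 10 genes, as 11 windows because Mxi1 has 3. The E-box was searched as CACGTG and the E2F words as TTTGGCGC and TTTCGCGC, on both strands. The E-box lay in the windows of Mxd4, Mnt and Max, where 7.15% of 32851 windows hold it. The E2F words lay in the window of Mycn alone among the 9 genes, where 0.813% of all windows hold either word and 0.0244% hold both. In the 3 stretches below, read 5′ to 3′ on the gene's strand, capitals mark these words. The Mycn stretch, chr12:12941985-12942031 on the minus strand, starts 195 bases before the start and holds TTTGGCGC 2 times, the first overlapped by TTTCGCGC on the opposite strand. The Mxd4 stretch is chr5:34187912-34187941 on the minus strand, and the Mnt stretch is chr11:74830789-74830818 on the plus strand. A match describes the letters and is not evidence of binding.
Mycn: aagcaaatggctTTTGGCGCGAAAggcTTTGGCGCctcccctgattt
Mxd4: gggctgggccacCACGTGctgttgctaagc
Mnt: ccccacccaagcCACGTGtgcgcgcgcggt

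The tumors held 13300223 to 34620979 estimated counts each in the p107 group and 12700334 to 21254514 in the p130 group. Tumors are named by their titles, with the guide, the mouse number and the tumor number. Every tumor expressed the neuroendocrine markers Chga, at 269 CPM (counts scaled to library size) or more, and Insm1, at 233 CPM or more. Other markers were uneven. Calca was 117 CPM in sgp107_6627T1 and 1200 to 7920 CPM in the other 15 tumors, while Chgb, Syp and Ncam1 were highest in sgp107_6627T1. Rbl2 spanned 55.4 to 128 CPM among p107 tumors and 15.6 to 54.4 CPM among p130 tumors, without overlap. Rbl1 spanned 64.3 to 247 CPM among p107 tumors and 60.6 to 121 CPM among p130 tumors, with overlap. All 8 p107 tumors and 2 of the 8 p130 tumors, both of mouse sgp130_6697, came from mice in which every tumor expressed Y-linked genes. A tumor below the limit set aside its whole mouse, so the sex of the other p130 mice was not established. Genotype and sex cannot be told apart in most of the comparison. One library stood apart. In sgp130_6637T1, genes with transcripts over 5000 bases were shifted down relative to genes under 1500 bases by 0.99 on the log2 scale (the median deviation of long genes minus that of short genes was -0.99). The same value lay between -0.12 and 0.10 in the other 15 tumors. Values without sgp130_6637T1 are given beside results that it moved.

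Mycl1 was the leading MYC family transcript in every tumor. Per kilobase of transcript, its median over the 16 tumors was 42.1 CPM per kb, above 3.54 for Myc and 2.97 for Mycn. It made up 58.0% to 93.8% of the summed MYC family signal per kb among p107 tumors and 56.0% to 98.2% among p130 tumors. Myc reached its largest share, 42.3%, in sgp130_6637T1, and Mycn its largest, 32.9%, in sgp107_6627T1. In the other tumors Myc stayed at or below 18.8% and Mycn at or below 24.6%. On the same scale, Max, which all of these factors need, had a median of 29.5 CPM per kb, Mxd3 21.3, Mxi1 17.9, Mxd4 12.5, Mga and Mxd1 10.7 each, and Mnt 9.38. The medians of Mga, Mxd1 and Mnt lay within the spread of each other over tumors (7.14 to 17.3 for Mga, 4.02 to 15.5 for Mxd1 and 5.71 to 13.8 for Mnt).

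Mycl1 and Mycn also varied most of the 10 genes. The SD of log2(CPM + 1) over the 16 tumors was 1.21 for Mycl1, 1.12 for Mycn and 0.77 for Myc, larger than in 95.8%, 94.5% and 85.3% of the genes tested. Max was at the other end with an SD of 0.18, above only 3.72% of genes, and its highest tumor held 1.61 times its lowest. The median SD of all genes tested was 0.39. The antagonists lay between, from 0.29 for Mnt to 0.61 for Mxi1. Without sgp130_6637T1 the SD of Myc was 0.55, below that of Mxi1 at 0.58, while Mycl1 had 1.22 and Mycn 1.06. Differences between mice made up 69.1% of the variance of Mycn but 34.8% of that of Mycl1 and 14.8% of that of Myc, where the median gene had 52.0%. Most of the variance of Mycl1 and Myc lay between tumors of the same mouse.

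**Figure D1:**
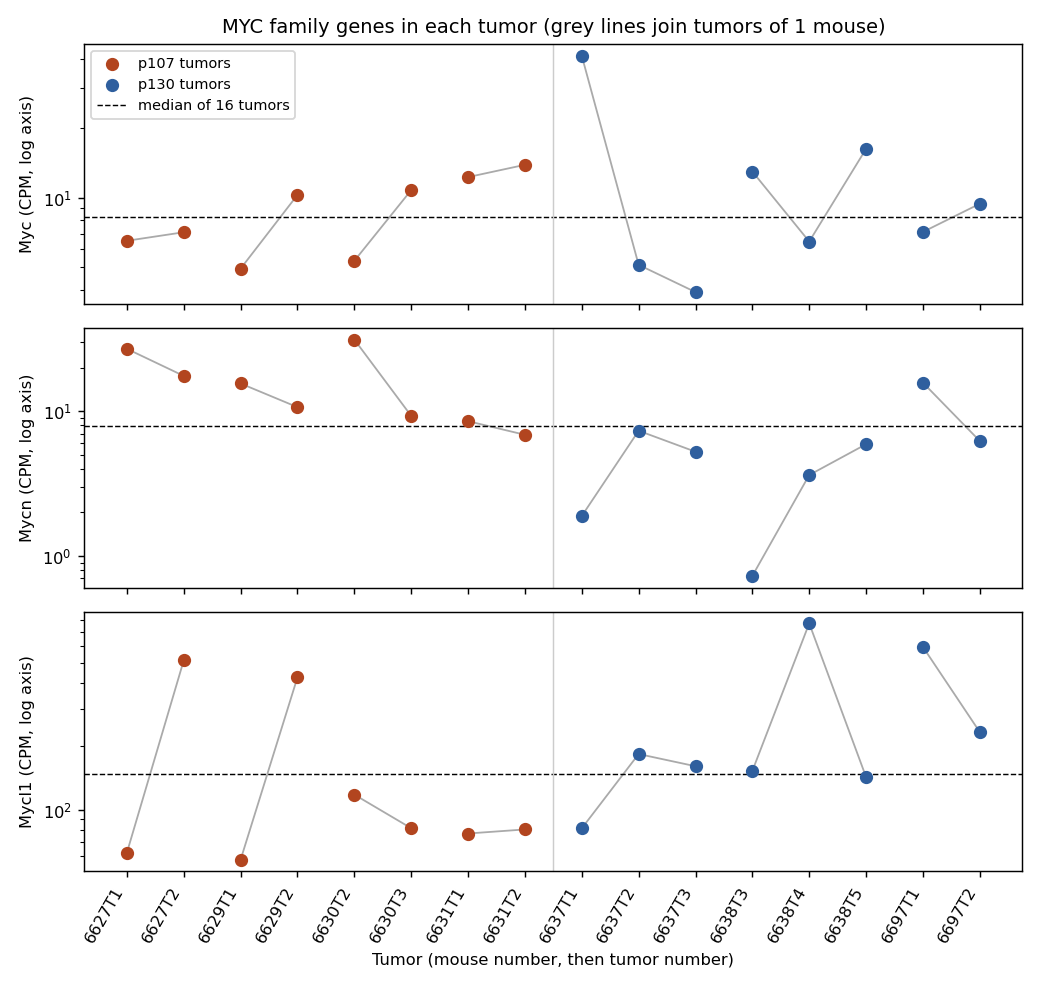
Level of Myc, Mycn and Mycl1 in each of the 16 tumors, in CPM on log axes. Points are tumors, p107 left and p130 right, grey lines join tumors of 1 mouse, and the dashed line is the median of the 16 tumors. Myc stands out in 1 tumor (41.2 CPM in sgp130_6637T1), Mycn is highest in sgp107_6630T2 and sgp107_6627T1, and 4 tumors from 4 different mice hold the highest Mycl1 levels.

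The high tumors for each MYC gene were mostly different tumors. A tumor was called high for a gene above 2 times the gene's median over the 16 tumors. Mycl1, the neuroendocrine-type MYC gene, was high in 4 tumors: sgp107_6627T2 (513 CPM), sgp107_6629T2 (426 CPM), sgp130_6638T4 (769 CPM) and sgp130_6697T1 (594 CPM), against a median of 148 CPM. Mycn was high in sgp107_6627T1 (27.1 CPM), sgp107_6627T2 (17.6 CPM) and sgp107_6630T2 (31.4 CPM), against a median of 7.96 CPM. Myc was high only in sgp130_6637T1, at 41.2 CPM against a median of 8.28 CPM. By this rule 9 tumors were high for none, 6 for 1 gene, 1 for a pair of genes (Mycn and Mycl1 in sgp107_6627T2) and none for all 3. Above 3 times the median, 10 tumors were high for none and 6 for 1 gene. With so few high tumors per gene, little overlap would also arise between unrelated genes, and the count was not tested.

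Each tumor with high Mycl1 had a mouse-mate without it. In mouse sgp107_6627 the tumors held 62.5 and 513 CPM, and in mouse sgp107_6629 they held 57.9 and 426 CPM. In mouse sgp130_6638 the tumors held 143, 153 and 769 CPM, and in mouse sgp130_6697 they held 234 and 594 CPM. The Myc level of sgp130_6637T1 was likewise 10.6 times that of its lowest mouse-mate, which held 3.91 CPM.

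Levels of Myc and Mycn ran against each other, but not beyond what the number of comparisons allows. Over the 16 tumors, Pearson's r of log2(CPM + 1) was -0.54 (permutation p = 0.0304, Benjamini-Hochberg adjusted p = 0.228 over 45 pairs of the 10 genes), and Spearman's rho was -0.39 (permutation p = 0.135, adjusted p = 0.854). Within the genotypes r was -0.88 in p107 tumors (permutation p = 0.00756) and -0.50 in p130 tumors (permutation p = 0.201). It was -0.60 for deviations from the genotype means (permutation p = 0.014) and -0.77 over the means of the 7 mice (exact permutation p = 0.0484). None of these p was adjusted. Without the 2 tumors farthest from the Myc median r was -0.38, and without sgp130_6637T1 it was -0.40 (permutation p = 0.139). The pooled relation rests in part on those tumors. For Myc and Mycl1 r was -0.24 (permutation p = 0.372, adjusted p = 0.680) and rho -0.18 (permutation p = 0.511). For Mycn and Mycl1 r was -0.05 (permutation p = 0.860, adjusted p = 0.907) and rho -0.14, with 0.03 in p107 tumors and 0.48 in p130 tumors. No pair of the 3 genes passed over the 16 tumors after adjustment, so graded mutual exclusion was not established.

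Between genotypes, Mycn showed the largest difference of the 10 genes, and no member passed the test over all genes. The amplified oncogene of neuroblastoma, Mycn lay between 6.89 and 31.4 CPM in p107 tumors, with a median of 13.2 CPM, and between 0.728 and 15.8 CPM in p130 tumors, with a median of 5.59 CPM. All 8 p107 tumors were above the p130 median and 3 were above the highest p130 tumor, while 6 p130 tumors were below the lowest p107 tumor. The overlap was made by the p130 tumors sgp130_6637T2 (7.35 CPM) and sgp130_6697T1 (15.8 CPM). The means were 15.9 ± 9.06 CPM in p107 tumors and 5.86 ± 4.61 CPM in p130 tumors (SD over 8 tumors each, as in all means below), a 2.71-fold difference (95% interval 1.41 to 5.23). In edgeR over all genes the log2 fold change was 1.44 ± 0.48 SE, with an adjusted p = 0.273 and an unadjusted one of 0.00848. The exact permutation p was 0.00591 over tumors and 0.0857 over the 7 mouse means, where 35 splits allow no p below 0.0286. Among the 8 p107 and 2 p130 tumors of mice with Y-linked transcripts in every tumor, the log2 fold change was 0.53 ± 0.61 SE (adjusted p = 0.977 in edgeR). Both p130 tumors there are of 1 mouse, sgp130_6697, and include sgp130_6697T1, the p130 tumor with the highest Mycn. That fit cannot separate sex from the choice of mouse.

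In these pieces of tissue, fewer cells of a type and less RNA per cell cannot be told apart. Endothelial markers were higher in p107 tumors in 5 of 5 genes, where 7427 of the 14857 genes tested had a negative log2 fold change. Their mean log2(CPM + 1) was 4.20 to 4.98 among p107 and 3.19 to 4.38 among p130 tumors. In edgeR 0 of the 5 passed, while 5 had an unadjusted p under 0.05, against 11.8% of all genes. T and B cell markers had a mean of 0.671 to 3.89 among p107 and 0.537 to 0.933 among p130 tumors. Of these, 4 of 4 tested genes were positive and none passed at adjusted p under 0.05 in edgeR (3 at an unadjusted p under 0.05). All 6 listed markers were highest in sgp107_6631T2, which had the lowest Mycn of the p107 tumors, 6.89 CPM. Fibroblast markers were positive in 4 of 5 genes, with 1 at an unadjusted p under 0.05. Macrophage markers were positive in 3 of 5 genes and alveolar and airway markers in 4 of 5, with 0 at that threshold. The part of these cells in the Mycn difference was not tested.

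Of all 14857 genes, 4 passed in edgeR at an adjusted p under 0.05 (0.0269%), and 0 of the 10 members did. DESeq2 called 335 of 17399 genes and also 0 of the 10. Mycn came nearest there, with an adjusted p = 0.0753 and an unadjusted one of 0.00195. At an unadjusted p under 0.05 in edgeR stood 1 of the 10, Mycn, against 11.8% of all genes. No member separated the groups without overlap, as 0.141% of all genes did. For Mycl1 the p107 tumors ran from 57.9 to 513 CPM, with a median of 81.1 CPM, and the p130 tumors from 81.6 to 769 CPM, with a median of 172 CPM. High tumors stood in both groups and the ranges overlapped, but 6 of the 8 p107 tumors were below the p130 median. On the log2 scale the difference was -0.71 ± 0.57 SE (adjusted p = 0.649 in edgeR, exact permutation p = 0.162 over tumors and 0.143 over mice). For Myc the p107 tumors ran from 4.94 to 13.9 CPM, with a median of 8.68 CPM, and the p130 tumors from 3.91 to 41.2 CPM, with a median of 8.28 CPM. The log2 difference of -0.53 ± 0.43 SE (adjusted p = 0.650 in edgeR) was 0.02 ± 0.32 SE without sgp130_6637T1 (adjusted p = 0.993). The p107 tumors averaged 8.90 ± 3.36 CPM, and without that tumor the other 7 p130 tumors averaged 8.77 ± 4.47 CPM.

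Neither the partner nor any antagonist passed between genotypes. Max lay at 58.1 ± 8.39 CPM in p107 tumors and 58.2 ± 7.36 CPM in p130 tumors, and the 95% interval of the fold difference, 0.860 to 1.16, is the narrowest of the 10 genes. Mga averaged 141 ± 13.2 CPM in p107 tumors and 166 ± 43.4 CPM in p130 tumors, and its log2 fold change was -0.24 ± 0.14 SE (adjusted p = 0.535 in edgeR), or -0.32 ± 0.12 SE without sgp130_6637T1 (adjusted p = 0.366). Mxd1, which rises in many cells as they leave the cycle, averaged 55.8 ± 12.9 CPM in p107 tumors and 44.6 ± 11.5 CPM in p130 tumors. This was a log2 difference of 0.32 ± 0.20 SE (adjusted p = 0.543 in edgeR), or 0.21 ± 0.15 SE without that tumor. Mxi1 had 0.27 ± 0.29 SE, Mnt -0.10 ± 0.15 SE, Mxd3 0.04 ± 0.22 SE and Mxd4 0.00 ± 0.21 SE (edgeR adjusted p = 0.741, 0.821, 0.966 and 0.997). The Mxi1 value was 0.53 without sgp130_6638T3 (edgeR adjusted p = 0.397), 0.13 without sgp107_6627T1, and between 0.04 and 0.63 without 1 mouse. Mxd3 overlaps Prelid1 on the opposite strand in GENCODE M21, and the sources used here do not give the strand setting of the counts, so part of its reads may belong to Prelid1.

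**Figure D2:**
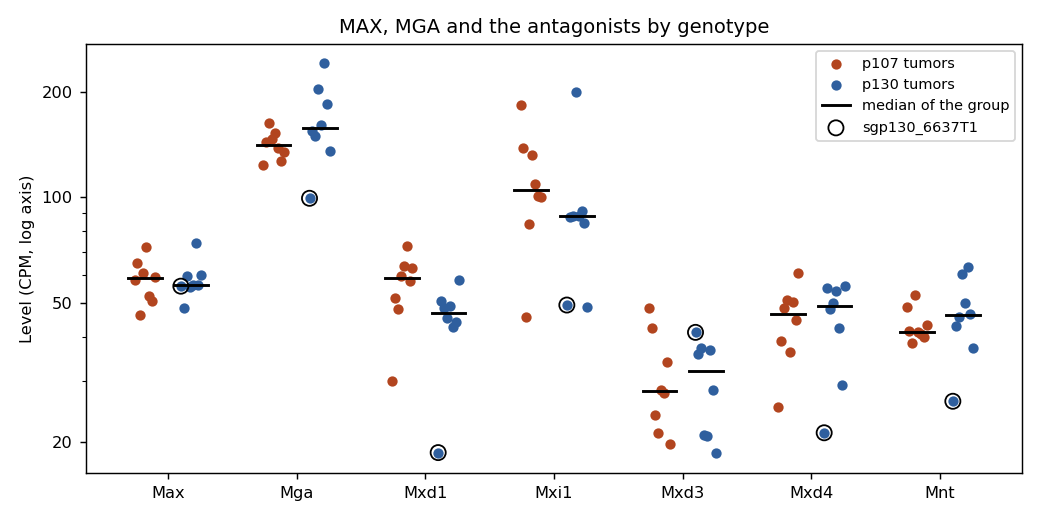
Levels of Max, Mga and the antagonists in CPM on a log axis. Points are tumors, p107 left and p130 right for each gene, bars are group medians and open circles mark sgp130_6637T1. The groups overlap for all 7 genes, and the circled tumor is the lowest of 16 for Mga (99.4 CPM), Mxd1 (18.7 CPM), Mxd4 (21.3 CPM) and Mnt (26.2 CPM).

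Among the partners and antagonists, some genes moved together over tumors. Of the 45 pairs, 2 passed by Pearson's r after adjustment, and 0 by Spearman's rho. Mga and Mnt had r = 0.80 (permutation p = 0.00037, adjusted p = 0.0166) and rho = 0.55 (adjusted p = 0.462). In p107 tumors r was -0.27 and in p130 tumors 0.96, so the relation was not seen within the p107 group, and without the 2 tumors farthest from the Mga median it was 0.53. Mxd1 and Mxd4 had r = 0.78 (permutation p = 0.00075, adjusted p = 0.0169) and rho = 0.56 (adjusted p = 0.462). It was 0.77 in p107 tumors and 0.87 in p130 tumors, but 0.31 without sgp130_6637T1 and sgp107_6627T1, the 2 tumors farthest from the Mxd1 median, on which it rests. Mxd3, which is expressed in S phase, and Mxd4 ran opposite to each other in both genotypes, with r = -0.66 (adjusted p = 0.0745) and rho = -0.76 (adjusted p = 0.0567). The values were -0.85 in p107 tumors, -0.52 in p130 tumors, -0.82 over the 7 mice (exact permutation p = 0.0181) and -0.63 without sgp130_6637T1. Over all 16 tumors the level of Mxd1 ran with the balance of long and short transcripts (r = 0.84), as did those of Mxd4 (0.68), Mnt (0.64) and Mga (0.55), while Myc ran against it (-0.73). Sgp130_6637T1 is the extreme of that measure, and its part in these relations beyond the values given was not tested.

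Proliferation and cell state were compared with the network in 22 relations. Myc and the proliferation marker Mki67 ran opposite, with r = -0.74 (permutation p = 0.00075, adjusted p = 0.0165) and rho = -0.60 (adjusted p = 0.125). The relation was -0.96 in p130 tumors but -0.27 in p107 tumors and -0.26 over the 7 mice (exact permutation p = 0.581). It was -0.57 without the 2 tumors farthest from the Myc median and -0.60 without sgp130_6637T1, which had the lowest Mki67, 622 CPM, beside the highest Myc. Mxd3 and Mki67 had r = 0.38 (adjusted p = 0.357), with 0.85 in p107 tumors and -0.01 in p130 tumors. It was 0.84 over the 7 mice (exact permutation p = 0.0125) and 0.68 without sgp130_6637T1 (permutation p = 0.00605, rho = 0.68), neither of these p adjusted. Mxd4 and Mki67 had r = -0.86 over the 7 mice (exact permutation p = 0.0173, not adjusted), but 0.12 over the 16 tumors. Mycn ran with Nfib, a chromatin regulator linked to spread of this cancer, at r = 0.59 and rho = 0.59 (adjusted p = 0.184 and 0.125), with 0.72 in p107 tumors and 0.78 in p130 tumors. Nfib was highest in sgp130_6697T1 (4230 CPM), which also had the highest Mycn of the p130 group, and next in sgp107_6627T1 (1740 CPM) and sgp107_6627T2 (1180 CPM), both high for Mycn.

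The neuronal regulator Neurod1 marks another state of small cell lung cancer and was too low in these tumors for the gene test. It reached 9.15 CPM in sgp130_6637T1, 4.28 CPM in sgp130_6638T4 and 1.45 CPM in sgp130_6638T5, and was at or below 0.145 CPM elsewhere. The 3 tumors are the highest for Myc, the highest for Mycl1 and the next highest for Myc. All 3 are p130 tumors, the group of lower Mycn, and ranks among the other tumors rest on Neurod1 values at or near 0. With Mycn, Neurod1 had r = -0.52 (adjusted p = 0.225) and rho = -0.71 (adjusted p = 0.0693), or r = -0.36 and rho = -0.66 without sgp130_6637T1. It was -0.42 in p107 tumors, -0.39 in p130 tumors and -0.32 for deviations from the genotype means. Over the 7 mice r was -0.88 (exact permutation p = 0.00437, not adjusted). With Myc, Neurod1 had r = 0.60 (adjusted p = 0.196), or 0.11 without sgp130_6637T1. Yap1 passed with none of the 3 MYC genes (adjusted p from 0.357 to 0.905 by r). With Mycl1 it had r = -0.39 over the 16 tumors and -0.86 over the 7 mice (exact permutation p = 0.0159, not adjusted).

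Genes next to Mycl1 on chromosome 4 followed its level. Gene order was taken from RefSeq GRCm38.p6, and the 6 nearest tested genes on each side were examined. Their median r with Mycl1 was 0.75, against 0.02 over 12147 genes of at least 5 CPM. Of the 12, 6 exceeded 0.8, as 0.123% of those 12147 genes did: Cap1 (0.84), Mfsd2a (0.83), Trit1 (0.86), Bmp8b (0.89), Oxct2b (0.82) and Ppie (0.87). The neighbours had only to pass the count filter. Mfsd2a and Oxct2b, with medians of 0.591 and 0.567 CPM, lie below the 5 CPM limit and are not among the 12147. For 5 of the 6 the same 4 tumors that were high for Mycl1 held the highest levels. In sgp130_6638T4 the tRNA-modifying enzyme gene Trit1 reached 167 CPM, where the median of the other tumors was 19.5 CPM. The cyclophilin gene Ppie reached 284 CPM there against 35.3 CPM, and the actin regulator gene Cap1 1040 CPM against 279 CPM. Rlf and Zmpste24, 4 and 5 places to the other side, stayed at 84.9 and 98.0 CPM in that tumor against 93.2 and 112 CPM.

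**Figure D3:**
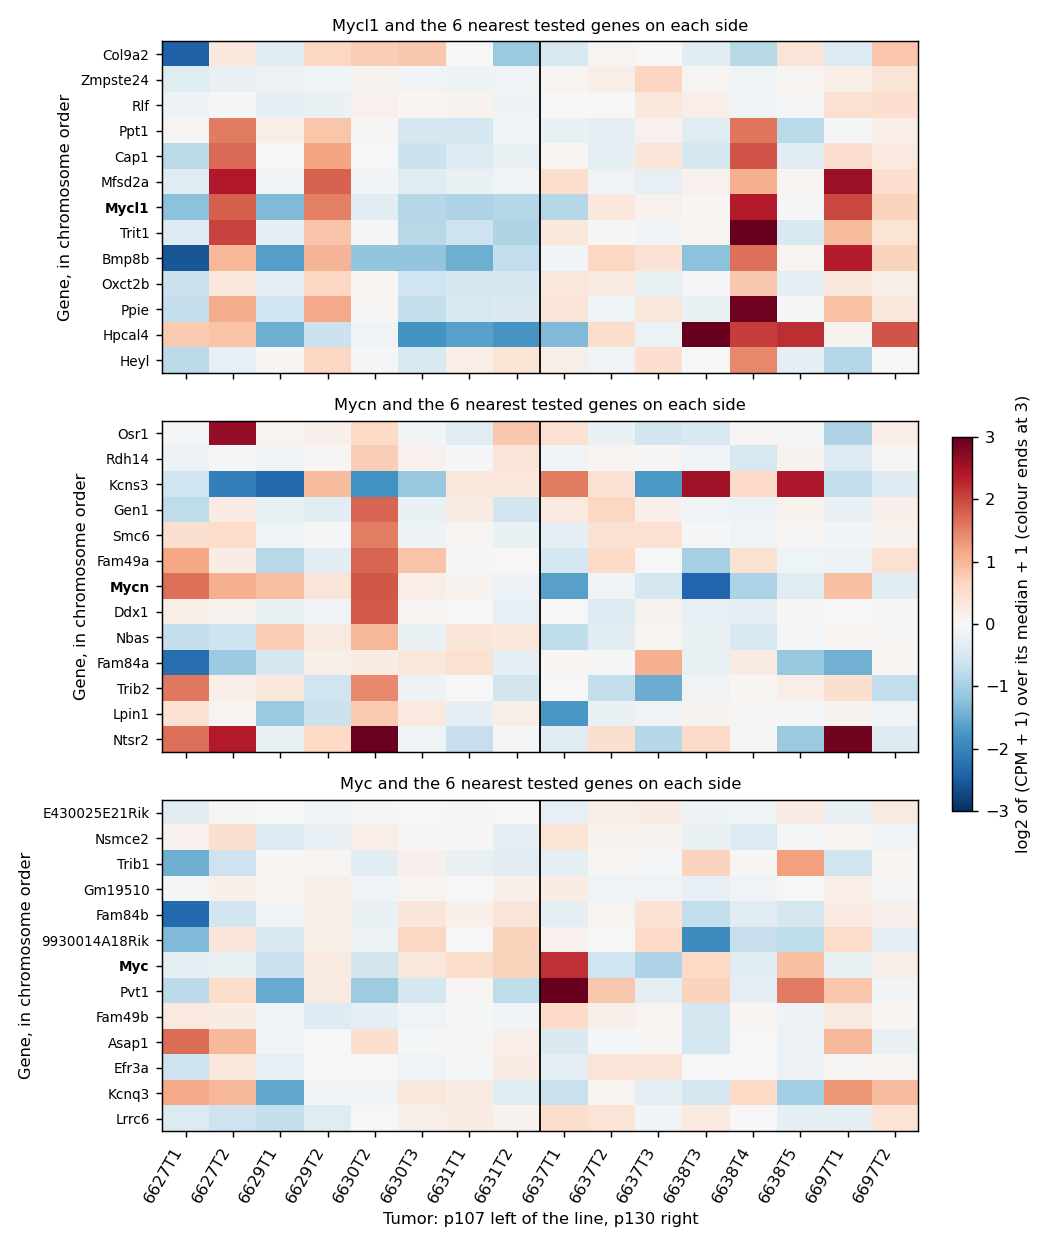
Levels of Mycl1, Mycn and Myc (bold) and their 6 nearest tested genes on each side, in chromosome order, as log2 of CPM + 1 over the gene's median + 1. Columns are tumors, p107 left of the line and p130 right. Red bands run through Mycl1 and its neighbours in sgp107_6627T2, sgp107_6629T2 and sgp130_6638T4, through most genes around Mycn in sgp107_6630T2, and through Myc and Pvt1 in sgp130_6637T1.

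The stretch that followed Mycl1 was long and one-sided. Among 40 tested genes on each side, 25 had r over 0.6, from Ppt1, 3 places before Mycl1, to Meaf6, 28 places after it. They were 25 of the 31 genes within these bounds. The bounds are the first and last gene with r over 0.6, so 0 of the 49 genes outside could pass it, and the highest there had r = 0.58. These bounds were set after the values were seen. Because r with Mycl1 chose the stretch, its levels in tumors of high Mycl1 are a description and not separate support. The stretch as a whole was shifted up in 3 of the 4 tumors with high Mycl1: its median deviation (log2) was 0.72 in sgp107_6627T2, 1.13 in sgp107_6629T2 and 1.67 in sgp130_6638T4. In sgp130_6697T1, the fourth, it was 0.31, within the -0.54 to 0.32 of the other 12 tumors. The 37 genes before the stretch were not shifted up in those 3 tumors (-0.06, 0.07 and -0.12), nor were the 12 genes after it (-0.09, 0.13 and -0.13). Among all genes of at least 5 CPM, the 5 most like Mycl1 were Bmp8b, D830031N03Rik, Ppie, Trit1 and Gnl2, with r from 0.89 down to 0.85. All 5 are on chromosome 4, as were 15 of the 20 and 26 of the 50 most like it, where 6.43% of genes are. Without sgp130_6637T1 these counts were 17 of 20 and 24 of 50. Chromosome 4 as a whole had medians of -0.14 to -0.01 (log2) among p107 and -0.09 to 0.32 among p130 tumors. DNA copy number was not measured.

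**Figure D4:**
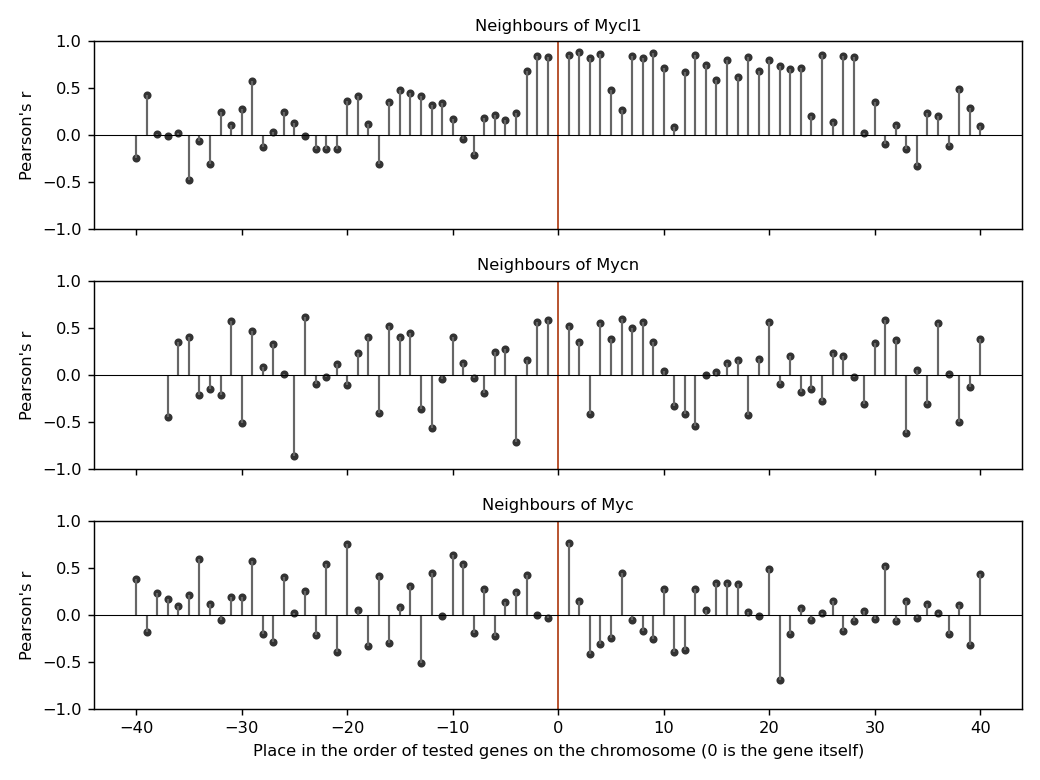
Pearson's r of log2(CPM + 1) over 16 tumors between Mycl1, Mycn or Myc and up to 40 tested genes on each side, by place in the gene order. The first gene with r over 0.6 lies 3 places before Mycl1 and the last 28 places after it. Of the 31 genes within these bounds, 25 have r over 0.6, with no such run around Mycn or Myc.

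Around Mycn, neighbouring genes were high in 1 tumor. In sgp107_6630T2, which had the highest Mycn level, 8 of the 12 neighbours also had their highest level of the 16 tumors. The RNA helicase gene Ddx1, next to Mycn, reached 809 CPM there, and at most 253 CPM in the other tumors. Smc6, of the SMC5/6 DNA repair complex, reached 795 CPM (at most 402 CPM elsewhere), Gen1, a Holliday junction resolvase gene, 84.4 CPM (at most 38.0 CPM) and Fam49a 129 CPM (at most 86.7 CPM). In sgp107_6627T1 and sgp107_6627T2, the other tumors with high Mycn, these neighbours were not at such levels. Across all tumors the 12 neighbours had a median r of 0.36 with Mycn, and none exceeded 0.8. The gene most like Mycn was instead Nkx2-1, a lung lineage factor on the same chromosome (r = 0.92, or 0.93 without sgp130_6637T1), followed by 2810030E01Rik, Zfp451, Camsap2 and Ncoa2, with r from 0.91 down to 0.88. Only 2 of the 50 genes most like Mycn were on its chromosome 12, near the 3.56% of all genes.

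Next to Myc on chromosome 15, the long noncoding RNA gene Pvt1 was high in the same tumor. Pvt1 reached 156 CPM in sgp130_6637T1, 64.5 times the median of the other tumors (2.42 CPM), which lay between 0.287 and 9.68 CPM. Fam49b, the next gene, was also highest there at 174 CPM against at most 142 CPM, but Asap1 beyond it (37.6 CPM) and Fam84b on the other side (86.6 CPM) were below their medians in the other tumors (51.9 and 109 CPM). Without that tumor r between Pvt1 and Myc was 0.40, against 0.76 with it. The 5 genes most like Myc, Higd2a, Fam136a, Alkbh6, Fxc1 and 2410015M20Rik, had r from 0.88 down to 0.82, and 0 of these 5 remained among the first 5 without sgp130_6637T1. Their r with Myc was then 0.76, 0.63, 0.76, 0.63 and 0.62.

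The genes most like Mxi1 lay mostly on its own chromosome. Of the 50 genes most like it, 34 were on chromosome 19 with it, where 3.41% of genes are, and 45 were without sgp130_6637T1. The median chromosome 19 gene was lower than the other chromosomes by a log2 deviation of -0.62 in sgp107_6629T1 and -0.64 in sgp130_6697T2. These tumors had the lowest Mxi1 levels, 45.7 CPM and 48.6 CPM, with 49.3 CPM in sgp130_6637T1 next, where the chromosome was at -0.00. In the other tumors the chromosome lay between -0.11 and 0.12, and Mxi1 reached 200 CPM in sgp130_6638T3 and 183 CPM in sgp107_6627T1 without a shift of it (0.07 and 0.05). Mnt had 14 of 50 on its chromosome 11 (20 without sgp130_6637T1), where 8.16% of genes are. In sgp130_6638T5 chromosome 11 stood at 0.62, and that tumor held the highest Mnt, 63.3 CPM. Mnt was nearly as high, 60.3 CPM, in sgp130_6638T3, where chromosome 11 stood at -0.03. Sgp130_6638T5 also had the highest Max, 74.2 CPM, with chromosome 12 at 0.29. Max was 72.4 CPM in sgp107_6630T2, where chromosome 12 stood at 0.04. Sgp130_6638T5 was also the highest of the 16 tumors for chromosomes 5, 7, 9, 10, 13 and 15, at 0.19 to 0.29.

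**Figure D5:**
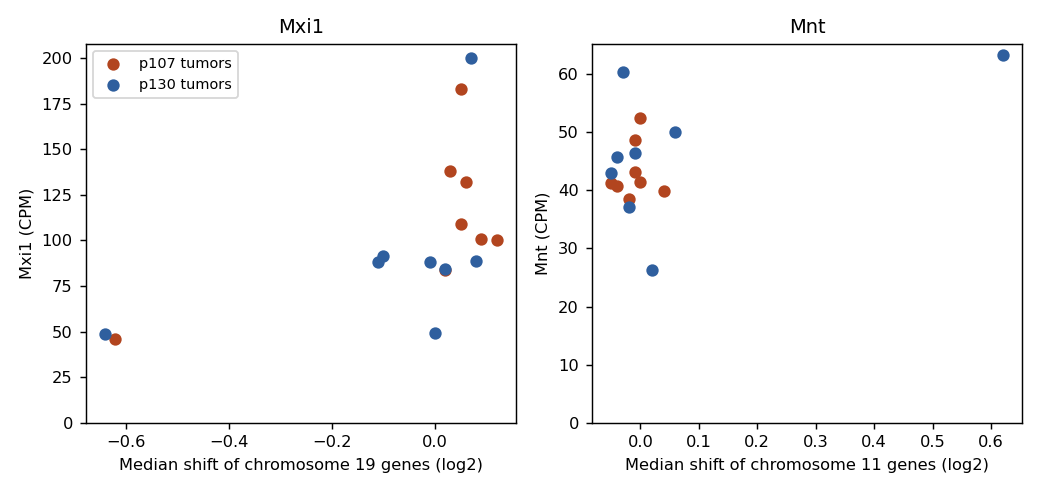
Level of Mxi1 against the median shift of chromosome 19 genes (left) and of Mnt against that of chromosome 11 genes (right), in CPM against log2. Points are tumors. The 2 tumors with chromosome 19 below -0.6 hold the lowest Mxi1 levels (45.7 and 48.6 CPM), and the tumor with chromosome 11 at 0.62 the highest Mnt level (63.3 CPM). Mnt is 60.3 CPM in sgp130_6638T3, where chromosome 11 is at -0.03.

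The wider network was read from lists chosen with earlier results of these data known, and 0 genes of any list passed in edgeR. Of 30 MYC target genes, 27 had a negative log2 fold change and 3 a positive one, with a median of -0.15, where 7427 of the 14857 genes tested were negative and their median was 0.00, and 6 of the 30 had an unadjusted p under 0.05, against 11.8% of all genes. The nucleolar helicase gene Ddx21 lay at 105 ± 15.2 CPM in p107 tumors and 148 ± 35.1 CPM in p130 tumors (adjusted p = 0.218 in edgeR). The nucleolar gene Gnl3 lay at 33.1 ± 7.42 CPM in p107 tumors and 48.8 ± 15.3 CPM in p130 tumors (adjusted p = 0.281). The tally rests in part on sgp130_6637T1, whose mean log2(CPM + 1) over the targets was 7.12, against 6.23 to 6.80 in the other tumors. Without it 20 of the 30 were negative and 10 positive, with a median of -0.11. Of 15 E2F targets 11 were positive and 4 negative (13 and 2 without that tumor), with a median of 0.12. Mcm5, a replication helicase gene, was among the 4, at 144 ± 49.2 CPM in p107 tumors and 210 ± 36.5 CPM in p130 tumors (edgeR adjusted p = 0.288).

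The co-repressor list of MXD proteins had 7 of 10 members negative, or 6 without sgp130_6637T1, where 7427 of the 14857 genes tested were negative. Its members with an unadjusted p under 0.05 were the histone-binding gene Rbbp4, at 548 ± 77.9 CPM in p107 tumors and 792 ± 237 CPM in p130 tumors, and the deacetylase gene Hdac1, at 187 ± 31.9 CPM in p107 tumors and 270 ± 87.9 CPM in p130 tumors (adjusted p = 0.266 and 0.308 in edgeR). MYC co-activators had 7 of 10 negative, or 8 without sgp130_6637T1. Genes that control MYC stability had 6 of 10 positive (4 without that tumor), and the parallel MLX branch, which senses glucose, 3 of 5 positive (2 without it). In the MGA complex 6 of 10 were positive (5 without it), with the lowest adjusted p for its E2F-related repressor E2f6 at 71.4 ± 17.7 CPM in p107 tumors and 53.8 ± 6.59 CPM in p130 tumors (edgeR adjusted p = 0.278). Of 10 germline genes that this complex silences in other cells only 3 passed the filter, among them the meiotic cohesin gene Stag3, at 0.725 ± 0.464 CPM in p107 tumors and 3.47 ± 3.75 CPM in p130 tumors (edgeR adjusted p = 0.193).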

How the data were processed

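RNA sequencing was done on 16 dissected, flash-frozen tumors with a KAPA mRNA kit, per the labels' protocols. The values analysed are estimated counts per gene, as the authors deposited them, for which the submitters' processing notes name RSEM 1.2.12, Bowtie 1.0.1 and the build mm9. The sources used here do not give the annotation or the strand setting. The authors also deposited a normalized signal, which served as an alternative only. The number in a title was read as the mouse. Whether the tumors of a mouse arose separately is not stated, and the tests over tumors treat them as independent.

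Estimated counts were rounded. The difference of p107 minus p130 was tested over all genes with edgeR 4.0.16 under R 4.3.3 (TMM, filterByExpr, robust quasi-likelihood, Benjamini-Hochberg, threshold 0.05). Alternatives used DESeq2 1.42.0 and limma 3.58.1. Levels are CPM with TMM factors. Intervals of folds are 95%. Correlations used log2(CPM + 1) with 100000 permutations, and exact two-sided permutation tests of single genes used 12870 splits of tumors or 35 of mice. RSEM's split of reads affects overlapping genes. Lengths per kb are of the longest basic coding transcript in GENCODE M21. Chromosome medians are of deviations from each gene's median, relative to the median chromosome. edgeR was tested on simulated data.

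The members and lists were chosen with earlier results of these data known. The named genes are the members, their 6 neighbours on each side, the 5 most like each MYC gene, the context genes and the 2 genes of smallest p in each list. The values without sgp130_6637T1, the balance of transcript lengths, the chromosome medians and the bounds of the stretch around Mycl1 were added after seeing the data. One context gene and its relations are not reported here, though the adjustment over 22 relations includes them.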

Additional observations from a re-analysis of the deposited data

Results flagged for a closer look

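The 10 genes were examined in p107 and in p130 tumors, as 20 groups of 8 values. In 5 groups, 1 tumor lay far from the rest of its group on the CPM scale. The rule flags about 1 in 20 groups, or 1 group, by chance only if values are normally distributed and groups independent. CPM values were not put on the log scale for it, and the Myc and Mxd1 flags share the tumor sgp130_6637T1. No excess over chance can therefore be read from the 5 flags, which are a description. All 5 are in the p130 group. Myc was 41.2 CPM in sgp130_6637T1, against 3.91 to 16.3 CPM in the other p130 tumors. Mycn was 15.8 CPM in sgp130_6697T1, against 0.728 to 7.35 CPM. Max was 74.2 CPM in sgp130_6638T5, against 48.3 to 59.9 CPM. Mxd1 was 18.7 CPM in sgp130_6637T1, against 42.7 to 58.1 CPM. Mxi1 was 200 CPM in sgp130_6638T3, against 48.6 to 91.7 CPM.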

How the results depend on the processing

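The number of genes called was 4 in edgeR and 335 in DESeq2 (2325 at an unadjusted p under 0.05), 1 with the normalized table and 1 with counts summed per mouse. It was 0 with voom and the mouse as a random block (935 unadjusted). Among tumors of mice with Y-linked transcripts in every tumor, with 1 p130 mouse, it was also 0 (1037 unadjusted). Leaving out 1 mouse gave 1 (mouse sgp107_6627), 0 (sgp107_6629, sgp107_6631, sgp130_6637 and sgp130_6638; 1818, 1507, 1665 and 1605 unadjusted) and 10 (sgp130_6697), and leaving out 1 tumor 0 to 6, with 0 without sgp107_6630T2 (1473 unadjusted), 1 without sgp130_6638T5 and 2 each without sgp107_6629T2, sgp107_6631T2, sgp130_6637T1 and sgp130_6638T3. No member passed under any of these. Mycn kept its direction, from 1.24 to 1.85 without 1 tumor and 1.12 to 1.94 without 1 mouse, and Mycl1 from -1.17 to -0.32 without 1 tumor.

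Myc, at a log2 fold change of -0.53 over all tumors, changed sign to 0.11 among tumors of the mice with Y-linked transcripts. Those tumors include 1 p130 mouse, sgp130_6697, and leave out sgp130_6637T1. Over all tumors but sgp130_6637T1 the Myc value was 0.02 (-0.66 to 0.02 without 1 tumor). Values near 0 also changed sign. Max was 0.0028 in DESeq2, 0.0014 with RLE factors, 0.01 without the filter and summed per mouse, 0.0025 with Y-linked transcripts only, and 0.04, 0.02 and 0.05 without mice sgp107_6629, sgp107_6631 and sgp130_6638 (-0.05 to 0.06 without 1 tumor). Mxd3 was -0.22, -0.08 and -0.07 without mice sgp107_6627, sgp130_6638 and sgp130_6697 (-0.09 to 0.12 without 1 tumor). Mxd4 was -0.05, -0.09, -0.05 and -0.02 without mice sgp107_6629, sgp107_6631, sgp130_6637 and sgp130_6697 (-0.10 to 0.09 without 1 tumor). Mnt was 0.05 with Y-linked transcripts only and 0.12 without mouse sgp130_6638.

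The correlation of Myc with Mycn lost its unadjusted p under 0.05 in p130 tumors alone (-0.50), without the 2 farthest tumors (-0.38) and without mice sgp107_6627, sgp107_6629, sgp107_6630 and sgp130_6697 (-0.52, -0.52, -0.51 and -0.53), and without the tumors sgp107_6629T1 (-0.52), sgp107_6630T2 (-0.50) and sgp130_6637T1 (-0.40), and ranged from -0.64 to -0.40 without 1 tumor. That of Myc with Mycl1 was 0.04 in p107 tumors. That of Mycn with Mycl1 was 0.03 in p107 tumors, 0.48 in p130 tumors, 0.27 for deviations from genotype means and 0.01 and 0.11 without mice sgp107_6630 and sgp130_6638 (-0.15 to 0.08 without 1 tumor). Tumors high for more than 1 MYC gene numbered 0 at 3 times the median. The causes were not tested. No paired analysis was possible because each mouse carried 1 genotype and the replicate numbers of the groups mark different mice. Depth limits the lowest values, such as 0.728 CPM for Mycn.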
